A study of Mus musculus with 24 samples.

Results

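The cecum and the ileum of mice labelled as lacking Cdx2 and carrying 1 mutant copy of Apc were compared, with 3 libraries from each tissue. These 6 libraries, of 24 in the series, were taken by their titles (Cdx2-/-;Apc+/-), and all 20502 genes that passed a filter on low counts entered the comparison. Both groups have the genotype Cdx2f/f::AhCreERT::ApcD14/+. They share floxed Cdx2 alleles, 1 ApcD14 allele and a Cre recombinase that tamoxifen activates (CreERT), driven by the Ah (Cyp1a1) promoter, which β-naphthoflavone induces; both received tamoxifen and β-naphthoflavone. The same regions of untreated mice gave 2 further groups of 3 libraries, WT cecum and Apc+/- ileum (ApcD14/+), which share no library with the mutant groups. For Apc+/- ileum replicates 1 and 3 the genotype entry names floxed Cdx2 and Cre while the description calls Cdx2 non-floxed, and the titles were followed. No source used here gives the strain or age, or says that replicates came from separate animals, so each p-value reflects only how much these libraries vary. The material was dissected tissue, from which total RNA was taken and poly(A) RNA sequenced. In such bulk samples fewer cells of a type and less RNA per cell cannot be told apart.

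CDX2 is a homeobox transcription factor that specifies intestinal epithelium, and mouse gut that loses it takes on features of more anterior gut. APC belongs to the complex that marks β-catenin, the effector of Wnt signalling, for destruction; without it β-catenin stays in the nucleus with TCF and LEF factors and switches on target genes that drive crypt stem cells and intestinal adenomas. Gut regions are also told apart by their own factors: the most posterior HOX proteins mark the large intestine, GATA4 the proximal and middle small intestine. The ileum takes up nutrients and, at its end, bile acids, and its crypts hold Paneth cells, which the normal cecum has few of.

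Depth was 42442153 to 43882457 gene reads in the mutant cecum libraries and 36567685 to 54490088 in the mutant ileum libraries; levels below are CPM, a gene's reads scaled to the size of its library after TMM normalisation. Cdx2 (ENSMUSG00000029646; GRCm38 chromosome 5, 147300805 to 147307270, minus strand) was measured at 151, 122 and 137 CPM in the mutant cecum and at 78.8, 178 and 36.9 CPM in the mutant ileum. WT cecum had 623, 663 and 408 CPM and Apc+/- ileum 90.1, 63.3 and 112 CPM. The mutant cecum libraries therefore all lay under the WT ones. In the mutant ileum, replicate 1 lay within the range of the 3 untreated ileum libraries and only replicate 3 under it. The library labelled Cdx2-/-;Apc+/- ileum replicate 2 lay above all 3 untreated ileum libraries. Counts per gene do not show which exon was deleted, so reads from a deleted allele that is still transcribed would be counted too. For ileum replicate 2, incomplete recombination and a wrong label cannot be told apart from these counts. Apc was read at 186, 179 and 172 CPM in the mutant cecum and 160, 128 and 157 CPM in the mutant ileum.

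The library labelled ileum replicate 2 stood apart in other respects. On the second principal component of the 1000 most variable genes, which held 22.6% of the variance over these 12 libraries, it lay at 36.9, where the Apc+/- ileum libraries lay between 36.9 and 40.1 and ileum replicates 1 and 3 at -17.8 and 1.39. Its counts differed from those of replicates 1 and 3 by a chi-square of 391 and 507 per degree of freedom, against 163 between those 2. Results that rest on it are given with and without it. Values of single genes that set the mutant against the untreated regional difference were not refitted without it. The library labelled ileum replicate 3 held few transcripts that mark the terminal ileum: Fabp6, Fgf15 and Slc10a2 were at 1.34, 0.0184 and 1.69 CPM, against 78.4 to 244, 0.26 to 7.69 and 18 to 92 CPM in the Apc+/- ileum libraries. Hoxb6, Hoxb7, Hoxb8 and Hoxb9, neighbours in the Hoxb cluster, were at 0.791, 0.717, 0.625 and 0.938 CPM there. They were at 47.3, 36.1, 28 and 158 CPM in replicate 1 and at 21.7, 20.5, 21.3 and 56.8 CPM in replicate 2, while the Apc+/- ileum libraries ran from 2.07 to 20, 2.69 to 16.1, 1.24 to 13.2 and 1.58 to 39.5 CPM. Replicate 3 was thus below and replicates 1 and 2 above all untreated ileum libraries in these 4 genes. No source used here says from where along the ileum each sample was cut, so position and genotype cannot be told apart in this library, which bears on the ileum values of Gata4, Anxa10, Hox and bile acid genes.

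Many Wnt target, stem cell and cell cycle genes were lower in the mutant cecum than in the mutant ileum. Genes of small intestinal absorption were also called lower, but most of those calls rested on the library labelled ileum replicate 2. Of the lists described, Hox genes and goblet cell markers held the most genes called higher in the cecum. A gene was called where its adjusted p in edgeR's quasi-likelihood test, fitted on all 24 libraries, was under 0.05. In the mutant cecum 1354 of 20502 tested genes (6.60%) were called higher than in the mutant ileum and 1967 (9.59%) lower, together 3321 (16.2%). Among those with a log2 fold change of at least 2 in size, 215 were higher and 614 lower.

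These calls rest on the spread that all 8 groups of the series share. With only the 6 libraries, edgeR called 0 genes (smallest adjusted p 0.0559), with 4171 genes at an unadjusted p under 0.05, and DESeq2 called 2300; limma with a weight for each group called 1766. The mutant ileum was the most variable group of the 8, with a biological coefficient of variation of 0.441 against 0.217 to 0.357 in the others. Without the library labelled ileum replicate 2, edgeR called 2480 genes. Without cecum replicates 1 or 2 it called 2023 and 1620 genes. A stricter set was therefore kept beside the main one: 451 genes higher (2.20% of those tested) and 803 lower (3.92%) were called in all of 4 fits, which are edgeR on all libraries, edgeR without ileum replicate 2, limma with group weights, and DESeq2 on the 6 libraries. A gene to which DESeq2 gave no adjusted p counted as not called there, so it could not enter this set.

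**Figure D1:**
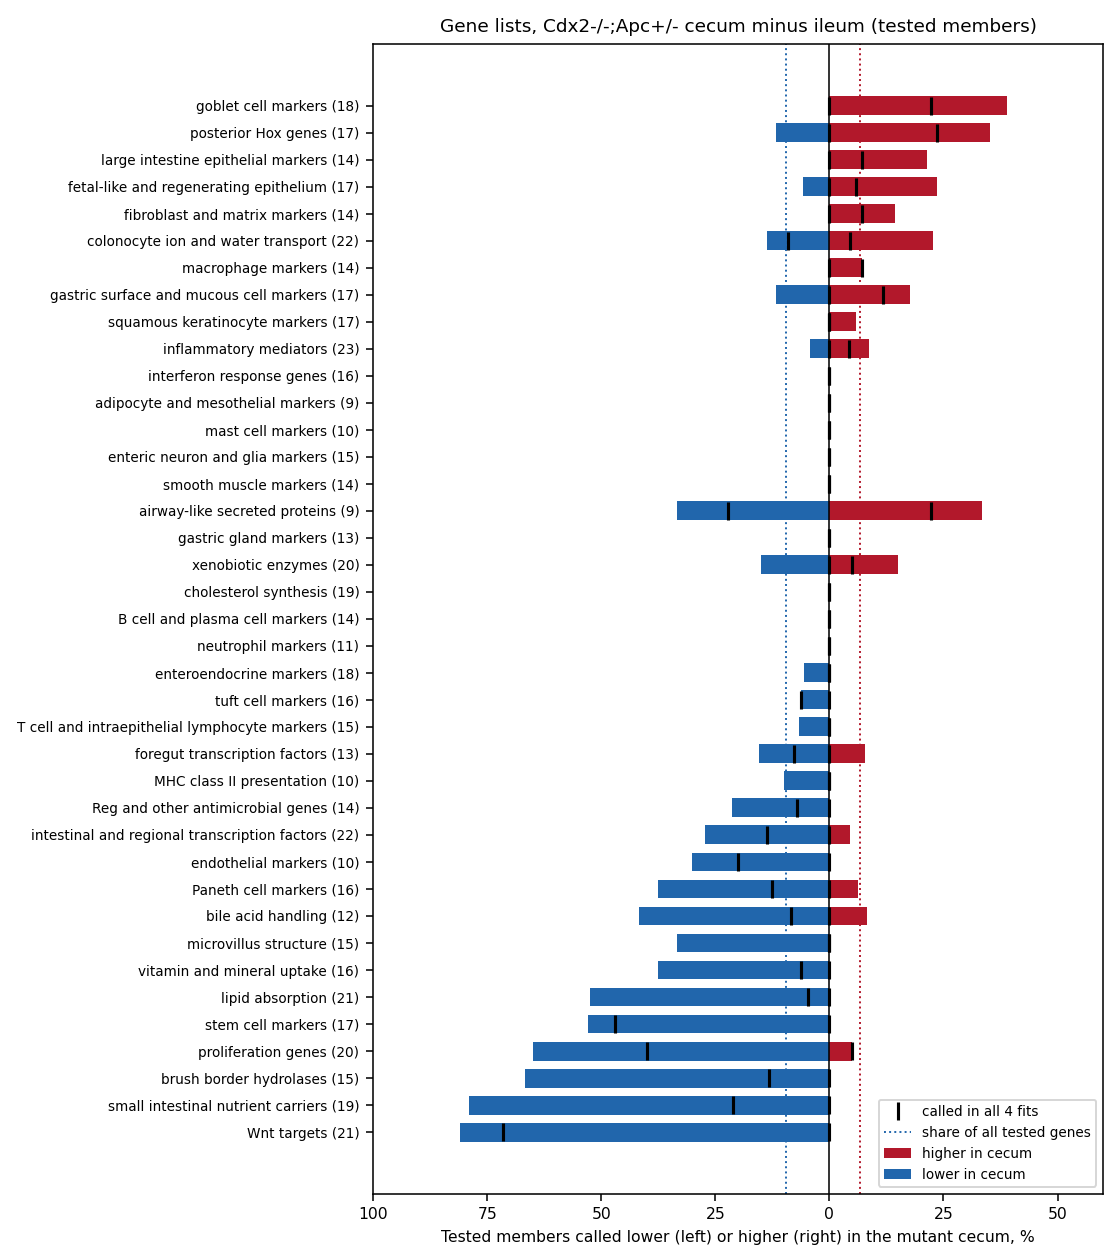
Share of the tested members of each gene list (number tested in parentheses) called lower (blue, to the left) or higher (red, to the right) in the Cdx2-/-;Apc+/- cecum than in the ileum, in percent; black ticks give the share called in all 4 fits and dotted lines the share over all tested genes. Wnt targets have the longest blue bar and keep most of it in all 4 fits, while the bars of nutrient carriers, brush border hydrolases and lipid absorption shrink. Genes without an adjusted p in DESeq2 count as not called in all 4 fits, which adds to that shrinkage.

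Wnt target genes were lower in the mutant cecum almost as a block. Of 21 on the list, all tested, 17 were called lower and 0 higher, with a median log2 fold change of -2.15, where 9.59% of all genes were called lower and the median over all genes was -0.0236. The count was 16 without the library labelled ileum replicate 2, between 14 and 17 when any 1 of the 6 libraries was left out, and 15 in all 4 fits, which called 6.12% of all genes in either direction. The 4 that were not called were Ccnd1, Cd44, Ephb2 and Sox9.

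Several of the genes that fell encode feedback inhibitors of the pathway. Notum (ENSMUSG00000042988; GRCm38 chromosome 11, 120653788 to 120661175, minus strand), a secreted enzyme that inactivates Wnt proteins, was at 0.532, 5.02 and 25.6 CPM in the mutant cecum and at 163, 194 and 489 CPM in the mutant ileum. The groups did not overlap, and cecum replicate 3 was the highest of the cecum libraries. Its log2 fold change was -4.76 ± 0.89 (SE; adjusted p 0.00191), and -6.67 without cecum replicate 3. Axin2, a scaffold of the β-catenin destruction complex, had 13.4, 20.4 and 50.2 CPM in the cecum and 140, 199 and 232 CPM in the ileum. Again the ileum libraries were all higher and cecum replicate 3 led the cecum, and the log2 fold change was -2.76 ± 0.42 (adjusted p 0.000475), or -3.49 without that library. Nkd1, which restrains Dishevelled, fell by 3.67 on the log2 scale and Wif1, a secreted Wnt-binding inhibitor, by 2.99, the latter not called without cecum replicate 2 (adjusted p 0.051). The membrane ubiquitin ligases Rnf43 and Znrf3, which remove Wnt receptors, fell by 1.82 and 1.76.

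Transcription factors of the pathway moved the same way. Lef1, a partner of β-catenin, had 1.4, 2.47 and 4.58 CPM in the mutant cecum against 15.2, 18.9 and 26.5 CPM in the mutant ileum. All ileum libraries were well above all cecum libraries, and the log2 fold change was -2.84 ± 0.33 (adjusted p 0.000107). Tcf7, another TCF family member, had a log2 fold change of -2.54, and Prox1, a homeobox factor induced in intestinal adenomas, one of -3.62 with cecum values from 3.59 to 66.5 CPM. T (brachyury), a T-box factor that Wnt signals induce in the embryo, was at 0, 0.393 and 6.91 CPM in the cecum and at 27.9, 37.3 and 70.2 CPM in the ileum (log2 -4.21 ± 1.14, adjusted p 0.025). The groups did not overlap, but the call was lost without cecum replicate 2 (adjusted p 0.0852) or ileum replicate 3 (0.0638), and the value was -7.86 without cecum replicate 3.

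Sp5, a zinc finger factor that β-catenin induces directly, was read at 5.55, 4.49 and 7.15 CPM in the mutant cecum and at 18.7, 29.3 and 36.7 CPM in the mutant ileum. The 2 groups were far apart, with a log2 fold change of -2.30 ± 0.43 (adjusted p 0.00196). Its promoter is shown because it alone, of the 12 Wnt targets with an entry in the RefSeq promoter table, holds CTTTGAT, a TCF and LEF type motif searched on both strands (reverse complement ATCAAAG); 3.73% of all 32851 promoters of 300 bases hold it. The window runs from 250 bases before to 50 bases after the start (GRCm38.p6, chr2:70474673-70474972, plus strand), and capitals mark the match, which begins 104 bases before the start.
Sp5: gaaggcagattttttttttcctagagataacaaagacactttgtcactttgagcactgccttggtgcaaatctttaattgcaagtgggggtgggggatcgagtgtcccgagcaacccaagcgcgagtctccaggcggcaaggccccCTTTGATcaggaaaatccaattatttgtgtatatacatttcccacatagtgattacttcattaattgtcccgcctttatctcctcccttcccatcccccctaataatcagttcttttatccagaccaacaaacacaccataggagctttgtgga

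Intestinal stem cell markers shared the pattern only in part. Of 17 tested, 9 were called lower and 0 higher (9.59% and 6.60% of all genes), and 8 were lower in all 4 fits (3.92%). This list shares genes with the Wnt list, among them Rnf43 and Znrf3, both lower in all 4 fits, so the counts are not separate. Lgr5, the receptor that marks crypt base stem cells, had 6.06, 8.32 and 33.2 CPM in the mutant cecum and 132, 88.1 and 218 CPM in the mutant ileum. The groups did not overlap (log2 -3.20 ± 0.69, adjusted p 0.00452; -4.34 without cecum replicate 3). Tnfrsf19, a receptor found in Lgr5-positive cells, and Mex3a, an RNA-binding protein of slowly cycling stem cells, had log2 fold changes of -3.29 and -2.76. Olfm4, a secreted stem cell marker, was not called by edgeR: it had 11580, 7763 and 5825 CPM in the cecum against 3215, 182 and 34.4 CPM in the ileum (log2 2.88 ± 1.25, adjusted p 0.123), while limma with group weights called it higher (adjusted p 0.0173). All 3 cecum libraries were above all 3 ileum libraries, which spread widely among themselves. Smoc2, Bmi1, Lrig1 and Rgmb were not called, at log2 -0.25, -0.14, -0.010 and -0.045.

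Cell cycle genes were lower by smaller amounts. Of 20 tested, 13 were called lower and 1 higher (9.59% and 6.60% of all genes), with a median log2 fold change of -0.77. In all 4 fits 8 were lower, and between 6 and 12 when 1 library was left out, the fewest without cecum replicate 2. Mcm7, a subunit of the replicative helicase, was at 41.7, 30.5 and 39.7 CPM in the cecum and 89.1, 81.6 and 90.2 CPM in the ileum (log2 -1.22 ± 0.20, adjusted p 0.000814). The groups did not overlap and varied little within themselves. Plk1, a mitotic kinase, was the 1 gene higher, with 139, 186 and 162 CPM in the cecum against 98.4, 78.1 and 87.8 CPM in the ileum (log2 0.88 ± 0.19, adjusted p 0.00514). Mki67, the usual proliferation marker, was not called at log2 -0.41 ± 0.29 (adjusted p 0.358).

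**Figure D2:**
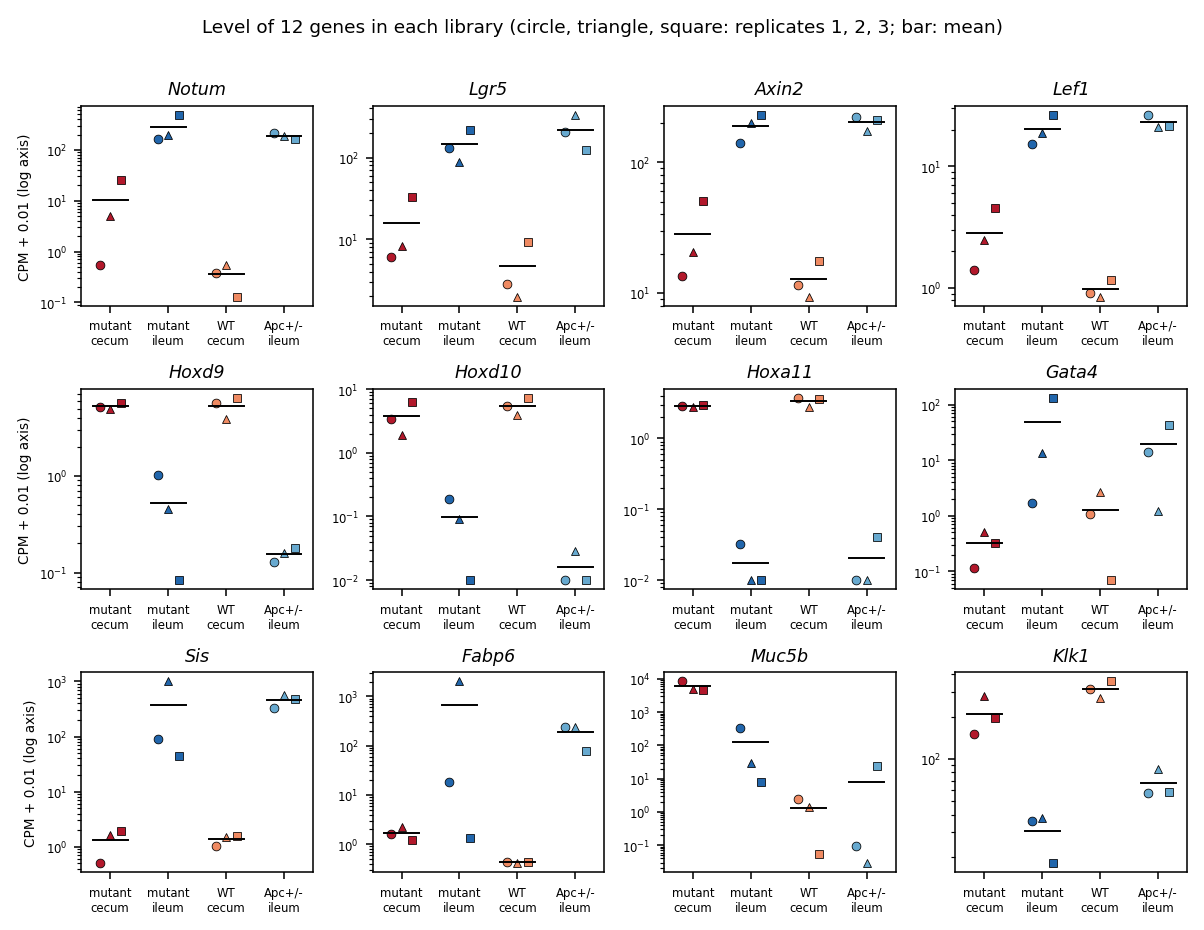
Levels of 12 genes in each library of the mutant (Cdx2-/-;Apc+/-) cecum and ileum, WT cecum and Apc+/- ileum, in CPM plus 0.01 on a log axis; symbols mark the 3 replicates and bars the mean. The Wnt genes in the top row and the regional genes in the middle row separate the mutant cecum from the mutant ileum, while Fabp6 in the mutant ileum ranges from 1.34 to 2016 CPM.

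Some Hox genes were higher in the mutant cecum. Of 17 tested Hox genes, whose products lay down position along the body axis, 6 were called higher in the cecum and 2 lower, against 6.60% and 9.59% of all genes, and 9 were not called. In all 4 fits 4 were higher and 0 lower. The list, labelled posterior Hox genes in the figures, also holds central Hox genes, among them Hoxc6, Hoxc8 and Hoxd8. The median log2 fold change was 1.16, or 1.10 with Hoxa13, at 0 reads in the ileum, set at its bound. The higher genes were Hoxa10, Hoxa11, Hoxd8, Hoxd9, Hoxd10 and Hoxd11. Hoxd10 was at 3.38, 1.9 and 6.21 CPM in the cecum and at 0.178, 0.0826 and 0 CPM in the ileum, with no overlap (log2 5.48 ± 1.07, adjusted p 0.00259). Hoxa11 had 2.87, 2.8 and 2.96 CPM in the cecum and 1 read in all ileum libraries together, a ratio of 460 with a 95% counting interval of 82.1 to 18219. Hoxa13, a marker of the most posterior gut, was low in the cecum (0.0694 to 0.225 CPM), at least 1.99-fold above the floor of 3 reads per library in the ileum. Hoxc6 and Hoxc8 were lower in the cecum, at log2 -2.65 and -3.99, and neither call held without the library labelled ileum replicate 2.

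Hoxd11 was at 1.3, 1.59 and 5.97 CPM in the mutant cecum and at 0.0892, 0.0495 and 0.0368 CPM in the mutant ileum (log2 5.64 ± 1.19, adjusted p 0.004). The ileum values come from few reads, and every cecum library was higher. Its promoter is shown as 1 of 3 among the 12 Hox genes with an entry that hold TTTATG, a Cdx-type motif also searched as CATAAA on the opposite strand; the other 2 are Hoxa7 and Hoxb8, and 11.9% of all promoters hold it. The letters of this motif and of the TCF and LEF type motif do not contain each other. The window is chr2:74679308-74679607 on the plus strand of GRCm38.p6, and capitals mark the match, 87 bases before the start.
Hoxd11: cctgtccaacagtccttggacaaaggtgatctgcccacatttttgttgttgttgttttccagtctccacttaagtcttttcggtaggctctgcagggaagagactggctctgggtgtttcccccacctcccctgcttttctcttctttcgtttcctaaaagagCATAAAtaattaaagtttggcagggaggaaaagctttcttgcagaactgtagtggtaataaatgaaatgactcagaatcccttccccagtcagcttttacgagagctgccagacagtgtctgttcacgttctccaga

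Gata4, the factor of the proximal and middle small intestine, was at 0.106, 0.509 and 0.306 CPM in the mutant cecum and at 1.67, 13.8 and 131 CPM in the mutant ileum. All ileum libraries were higher but spread over 2 orders of magnitude, with replicate 3 the highest; the log2 fold change was -7.32 ± 1.50 (adjusted p 0.0034) with it and -4.66 (adjusted p 0.0195) without it, and limma with group weights did not call it (adjusted p 0.102).

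Among 22 intestinal and regional transcription factors 1 was higher and 6 lower, against 6.60% and 9.59% of all genes. In all 4 fits 0 were higher and 3 lower. Apart from Gata4, Tbx3, a T-box repressor, fell by 2.01, Hnf4g, a nuclear receptor of enterocytes, by 2.80 (1.65 without the library labelled ileum replicate 2) and Foxa2, a forkhead factor of endoderm, by 2.23, each in all 4 fits. Foxa2 had 1.34, 0.601 and 2.7 CPM in the cecum and 4.98, 4.46 and 12.4 CPM in the ileum, whereas WT cecum (11.4 to 17.1 CPM) was above Apc+/- ileum (1.82 to 4.86 CPM). The 2 regional contrasts of Foxa2 thus had opposite signs and differed by -4.45 (adjusted p 7.81e-05). Gata6 (log2 -0.53) and Creb3l3 (-3.49) were also lower and Klf5 (0.53) was higher, none of them in all 4 fits. With 1 library left out, a gene of this list was called higher only without ileum replicate 1. Hnf4a, the main enterocyte nuclear receptor, was not called: 264, 198 and 293 CPM in the cecum against 272, 784 and 231 CPM in the ileum. Without the library labelled ileum replicate 2, the highest of the 6, its log2 fold change was 0.0011 in place of -0.77. Cdx1, the closest relative of Cdx2, had 11.9, 7.72 and 19.9 CPM in the cecum and 11.4, 53.6 and 3.53 CPM in the ileum, overlapping ranges (log2 -0.80 ± 0.78, adjusted p 0.533; 0.82 without that library).

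Goblet cell genes were called higher in the mutant cecum more often than lower. Of 18 goblet cell markers tested, 7 were called higher and 0 lower (6.60% and 9.59% of all genes), with a median log2 fold change of 0.85; 4 were higher in all 4 fits. Summed over the list, the mean level was 5150 CPM in the cecum and 5824 CPM in the ileum. The sums ran from 4860 to 5295 CPM over the cecum libraries and from 2358 to 11520 CPM over the ileum libraries. Klk1, a kallikrein protease of goblet cells, was at 151, 279 and 196 CPM in the cecum and at 36.3, 37.6 and 18 CPM in the ileum, without overlap (log2 2.77 ± 0.43, adjusted p 0.000577). Spink4, a protease inhibitor secreted with mucus, was at 1615, 1724 and 830 CPM against 330, 437 and 92.2 CPM, again without overlap (log2 2.28 ± 0.49, adjusted p 0.00459). Galnt12, which starts O-glycan chains on mucins, rose by 1.04 and Spdef, the transcription factor of goblet cell maturation, by 1.10. Muc2, the main gel-forming mucin of the intestine, was not called at log2 -0.24 ± 0.80, and its values overlapped (304 to 1278 CPM in the cecum, 122 to 2040 CPM in the ileum).

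Muc5b (ENSMUSG00000066108; GRCm38 chromosome 7, 141839070 to 141873084, plus strand), a gel-forming mucin known from airways and salivary glands, was at 8286, 4813 and 4723 CPM in the mutant cecum and at 332, 30.1 and 8.11 CPM in the mutant ileum. WT cecum held at most 2.46 CPM. The mutant groups did not overlap; the log2 fold change was 5.59 ± 1.86 with an adjusted p of 0.0464, which rose above the threshold when any 1 of 5 libraries was left out (to 0.133 without the library labelled ileum replicate 2). Without ileum replicate 1, the highest of its group, the value was 8.28 (adjusted p 0.0225). Bpifb3, of a family of secreted lipid-binding proteins, was at 55.4, 36.4 and 45 CPM against 0.892, 0.38 and 0.0919 CPM (log2 6.67 ± 0.97, adjusted p 0.000484). The secretoglobins Scgb2b19, Scgb2b12, Scgb2b7, Scgb2b20 and Scgb1b20, small secreted proteins whose family members are near-identical and can exchange reads, had log2 fold changes between 4.57 and 5.74, each in all 4 fits; they were chosen for the size of their change. Wfdc2, a secreted protease inhibitor, was at 833, 1751 and 897 CPM against 354, 67.9 and 87.1 CPM (log2 2.77, adjusted p 0.00551). Bpifb5 and Bpifb1 went the other way, at log2 -4.39 and -2.93: Bpifb5 was at 0.17, 6.78 and 36.9 CPM in the cecum and at 168, 340 and 409 CPM in the ileum. Of the 9 tested airway-like genes 3 were higher and 3 lower, against 6.60% and 9.59% of all genes.

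Genes of small intestinal absorption were lower in the mutant cecum, and the size of this difference came largely from 1 ileum library. Of 19 nutrient carriers 15 were called lower and 0 higher, with a median log2 fold change of -2.92; without the library labelled ileum replicate 2 there were 6, with a median of -1.36, and 4 in all 4 fits. Of 15 tested brush border hydrolases, enzymes that finish digestion at the cell surface, 10 were lower (median -4.09, the same with Enpp7 at its bound), 3 without that library and 2 in all 4 fits. For 21 lipid absorption genes the counts were 11, 5 and 1, and for 15 microvillus genes 5, 0 and 0. Among all genes 9.59% were lower in the main comparison and 3.92% in all 4 fits. An adjusted p from DESeq2 on the 6 libraries existed for 14 of the 19 carriers and 8 of the 15 hydrolases. It existed for 17 of the 21 lipid genes and 10 of the 15 microvillus genes. The others could not enter the counts in all 4 fits, which are to that extent too low.

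Sis, the brush border sucrase-isomaltase, was at 0.489, 1.62 and 1.9 CPM in the mutant cecum and at 89.9, 999 and 43.6 CPM in the mutant ileum. Every ileum library was above every cecum library, and the call held in all 4 fits: the log2 fold change was -8.14 ± 1.96 (adjusted p 0.00898) with the library labelled ileum replicate 2 and -5.64 (adjusted p 0.0332) without it. Apoa4, an apolipoprotein of chylomicrons, was at 0.532, 0.717 and 1.04 CPM against 15.9, 599 and 210 CPM (log2 -8.48 ± 1.54, adjusted p 0.0016; -7.20 without that library). Treh, which splits trehalose, was also lower in all 4 fits (log2 -6.42, and -4.08 without that library). Slc6a19, a carrier of neutral amino acids, was at 0.319, 0.278 and 0.797 CPM against 6.4, 691 and 7.34 CPM, and its log2 fold change of -8.96 became -3.87 (adjusted p 0.0604) without that library. Anpep, an aminopeptidase, was at 135, 115 and 140 CPM in the cecum and 98.9, 4433 and 246 CPM in the ileum, and Slc5a1, the sodium-glucose carrier, at 23.9, 23.6 and 31.9 against 38, 714 and 41 CPM. Without replicate 2 neither was called, at log2 -0.40 and -0.58. Enpp7, an intestinal sphingomyelinase, had 0 reads in every cecum library and 0.0669, 102 and 0.313 CPM in the ileum, at least 490-fold higher in the mean of the ileum. That bound was carried by replicate 2, without which Enpp7 was not called (adjusted p 0.304).

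Calls among bile acid genes also rested on that library. Of 12 tested, 1 was called higher and 5 lower (6.60% and 9.59% of all genes). Without the library labelled ileum replicate 2 there were 0 and 1. Fabp6, the ileal bile acid-binding protein, was at 1.57, 2.17 and 1.23 CPM in the mutant cecum and at 17.9, 2016 and 1.34 CPM in the mutant ileum. The groups overlapped at ileum replicate 3, and the log2 fold change went from -8.68 (adjusted p 0.0119) to -2.53 (adjusted p 0.254) without replicate 2. Fgf15, the hormone by which the ileum signals bile acid uptake to the liver, had 2 reads over the cecum libraries and 0.982, 31.4 and 0.0184 CPM in the ileum, a ratio of 849 with a 95% counting interval of 235 to 7014; without replicate 2 it was not called (adjusted p 0.073). Slc10a2, the bile acid carrier of the ileal brush border, was not called (log2 -3.15 ± 1.10, adjusted p 0.0565). Abcc3, which exports bile acids at the basolateral side, was the 1 gene higher (log2 0.98 ± 0.30, adjusted p 0.0335).

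The promoters of Sis and Fabp6 are shown because both genes are regional markers and hold the Cdx-type motif, as did 4 of 13 hydrolases with an entry (Lct, Mep1a, Sis and Tmprss15) and 3 of 10 bile acid genes (Fabp6, Nr1h4 and Slc10a2), against 11.9% of all promoters. The windows are chr3:72967814-72968113 and chr11:43601513-43601812, both on the minus strand of GRCm38.p6 and written along the gene. Capitals mark TTTATG beginning 43 bases before the start of Sis, and CATAAA, the same motif on the opposite strand, beginning 111 bases before the start of Fabp6.
Sis: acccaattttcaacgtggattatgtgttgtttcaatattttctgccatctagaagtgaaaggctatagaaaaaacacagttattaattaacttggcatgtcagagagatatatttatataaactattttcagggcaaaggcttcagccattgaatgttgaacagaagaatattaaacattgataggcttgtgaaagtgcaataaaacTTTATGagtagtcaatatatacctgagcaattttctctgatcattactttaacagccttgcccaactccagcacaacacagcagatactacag
Fabp6: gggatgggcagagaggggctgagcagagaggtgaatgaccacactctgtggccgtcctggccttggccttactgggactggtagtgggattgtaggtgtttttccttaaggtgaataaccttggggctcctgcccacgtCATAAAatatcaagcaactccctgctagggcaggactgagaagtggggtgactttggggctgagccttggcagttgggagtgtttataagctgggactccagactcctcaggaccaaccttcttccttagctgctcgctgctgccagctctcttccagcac

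**Figure D3:**
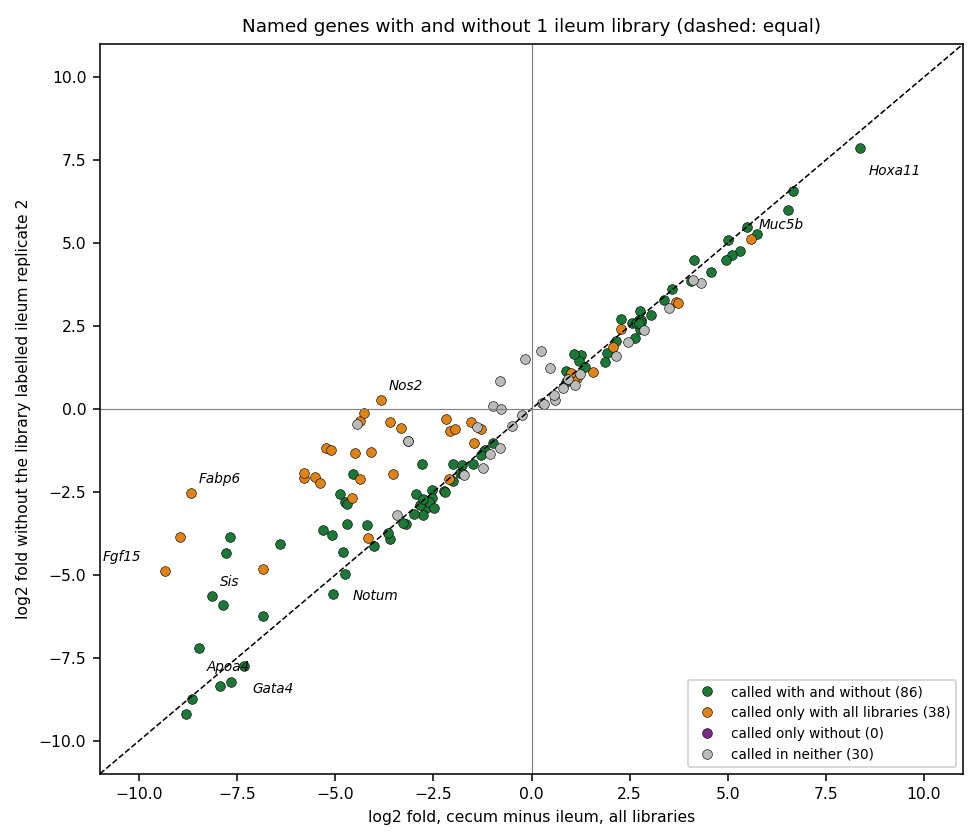
Log2 fold change (cecum minus ileum, Cdx2-/-;Apc+/-) of the named genes with all libraries (horizontal axis) and without the library labelled ileum replicate 2 (vertical axis); colours give the calls in the 2 fits and the dashed line equality. Genes higher in the cecum, Notum and Gata4 stay near the line, while Fabp6, Fgf15, Sis and Nos2 move toward 0 without that library, Nos2 from -3.85 to 0.27.

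Paneth cell genes were lower in the mutant cecum at the median, though not all of them. Of 16 tested, 6 were called lower and 1 higher (9.59% and 6.60% of all genes), with a median log2 fold change of -4.10. An unadjusted p under 0.05 was found for 12. The number called lower ran from 1, without cecum replicate 1 or 2, to 9, without ileum replicate 3. DESeq2 on the 6 libraries called 9 of 14 lower and 1 higher, and 2 were lower in all 4 fits. Mptx2, a pentraxin of Paneth cells, was at 0.0213, 0.162 and 0.327 CPM against 11.8, 33.7 and 14.4 CPM (log2 -6.85 ± 1.23, adjusted p 0.00157), and Pla2g2a, a secreted antibacterial phospholipase, at 3.81, 30.9 and 43.7 against 264, 356 and 657 CPM (log2 -4.03 ± 1.06, adjusted p 0.0147; 0.0544 without cecum replicate 1 and 0.0564 without cecum replicate 2). In both the groups did not overlap. Lyz1, the lysozyme of Paneth cells, was at 1309, 3176 and 699 CPM in the cecum and 716, 761 and 1507 CPM in the ileum, overlapping ranges that were not called (log2 0.80 ± 1.01, adjusted p 0.641). WT cecum held 0.523 to 7.37 CPM of Lyz1. Mmp7, the protease that processes defensins, overlapped likewise, at 158, 300 and 152 CPM against 373, 261 and 87.2 CPM (log2 -0.24), with at most 0.874 CPM in WT cecum. Defensin genes are near-identical and can exchange reads; Defa23, Defa21 and Defa22 were lower and Defa24 was not called.

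Of 14 Reg and other antimicrobial genes edgeR called 3 lower, all Reg lectins, and 0 higher (9.59% and 6.60% of all genes). Without ileum replicate 1 it called 1 higher. DESeq2 on the 6 libraries called 2 lower and 2 higher. Reg3b was at 14.8, 75.2 and 36.6 CPM in the cecum against 376, 2500 and 165 CPM in the ileum (log2 -4.59 ± 1.13, adjusted p 0.0104; -2.68 and 0.0754 without the library labelled ileum replicate 2). Its neighbour in the family, Reg3g, which binds Gram-positive bacteria, overlapped between the groups (355 to 854 CPM and 155 to 1750 CPM) and was not called. Lcn2, which sequesters bacterial siderophores, was at 435, 560 and 388 CPM against 351, 234 and 145 CPM, without overlap but with an adjusted p of 0.318.

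The same 2 regions of untreated mice differed in more genes. In WT cecum against Apc+/- ileum, which differ in Apc as well as in region, 5581 genes (27.2%) were higher in the cecum and 5770 (28.1%) lower, together 11351 (55.4%). Of the 1354 genes higher in the mutant cecum, 691 (51%) were also higher in WT cecum, and these were 12.4% of the 5581; of the 1967 lower ones 1346 (68.4%) were also lower, 23.3% of the 5770. Across all genes the log2 values of the 2 contrasts correlated with r = 0.41, a description over genes, which are not independent. A further 173 genes were higher in the mutant cecum but lower in the WT cecum, and 115 the reverse.

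The contrasts themselves differed, tested as an interaction, in 7110 genes (34.7%), 3360 (16.4%) with a higher and 3750 (18.3%) with a lower value in the mutants; this balance turned with upper-quartile scaling (3871 and 3178) and with a replicate block (1556 and 1469). All 21 Wnt targets were lower in WT cecum than in Apc+/- ileum, with a median of -3.72, and for 15 the difference was smaller in the mutants. Notum, at 0.371, 0.544 and 0.119 CPM in WT cecum and 217, 191 and 163 CPM in Apc+/- ileum, had a regional log2 difference of -9.16 there, 4.40 more than in the mutants (adjusted p 0.00907). Its mutant ileum values overlapped those of Apc+/- ileum, whereas the mutant cecum values ran from close to the WT level to 25.6 CPM. Sox9, a progenitor cell factor, was at 104, 103 and 110 CPM in the mutant cecum, 91.5 to 144 CPM in the mutant ileum and 17.1 to 20.9 CPM in WT cecum.

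Several genes of colonic ion and water transport were low in the mutant cecum beside WT cecum. Summed over the list, the mean level was 3078 CPM in the mutant cecum and 37820 CPM in WT cecum. The ileum was low in both genotypes, at 1902 CPM in the mutants and 1615 CPM in Apc+/- ileum. Of 22 tested, 5 were higher and 3 lower in the mutant cecum (6.60% and 9.59% of all genes). In WT cecum 12 were higher and 2 lower, where 27.2% and 28.1% of all genes were, so the counts of the 2 contrasts cannot be compared directly. The difference itself was called lower in the mutants for 8 and higher for 1 (18.3% and 16.4% of all genes). Slc26a3, the chloride-bicarbonate exchanger of the colon surface, was at 31.5, 1.25 and 33.8 CPM in the mutant cecum and 5.09, 42.8 and 8.2 CPM in the mutant ileum, against 2245, 3164 and 1975 CPM in WT cecum. The mutant groups overlapped (log2 0.25 ± 1.07, adjusted p 0.909), and the difference between contrasts was -6.49 (adjusted p 0.00514). Slc37a2, a sugar-phosphate exchanger, was at 5.66, 2.64 and 11.1 CPM in the mutant cecum and 1914 to 2825 CPM in WT cecum, with 3.24 to 6.07 CPM in the mutant ileum. Car1, a carbonic anhydrase of colonocytes, kept more of its level: 958, 61.2 and 1161 CPM in the mutant cecum against 105, 4.16 and 0.552 CPM in the mutant ileum, still under the 15030 to 26790 CPM of WT cecum. With cecum replicate 2 low and ileum replicate 1 high its groups overlapped, and it was not called (log2 4.32 ± 1.82, adjusted p 0.112). Scnn1a, a subunit of the epithelial sodium channel, rose in the mutant cecum in all 4 fits (93.1, 120 and 75.4 CPM against 24, 16.5 and 8.26 CPM; log2 2.57 ± 0.38, adjusted p 0.000376), close to the 2.97 of the untreated regions.

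**Figure D4:**
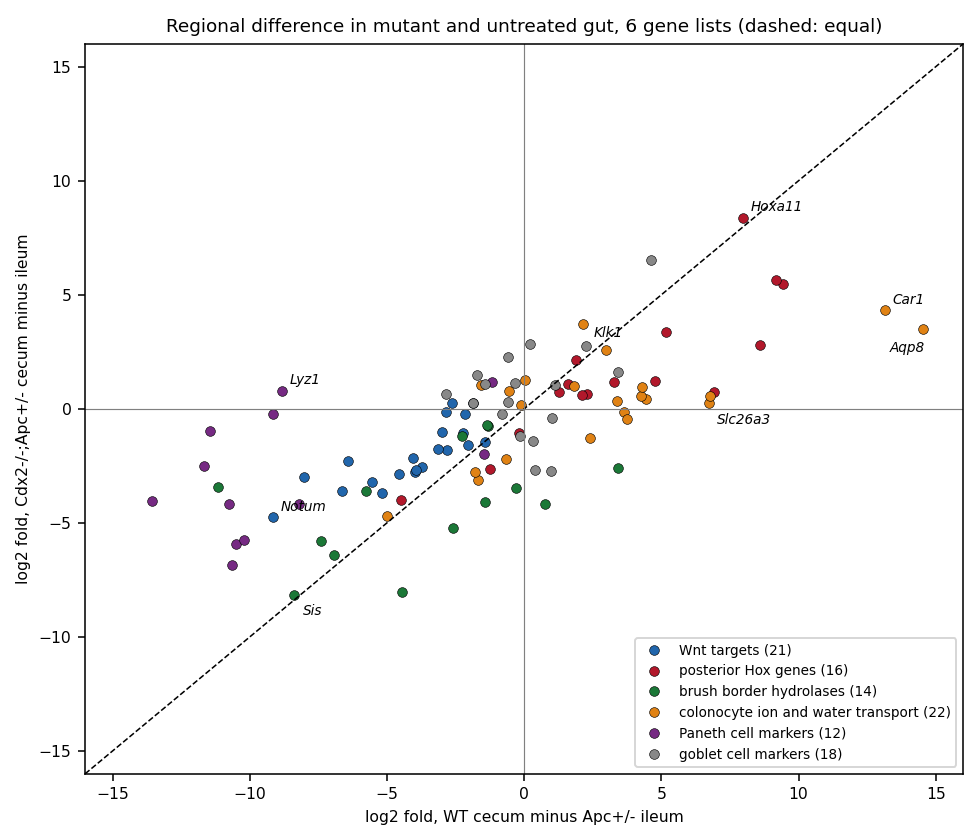
Log2 fold change between the regions in untreated gut (WT cecum minus Apc+/- ileum, horizontal axis) and in Cdx2-/-;Apc+/- gut (vertical axis) for the tested members of 6 gene lists, leaving out genes with a group at 0 reads; the dashed line marks equal values. Hoxa11 and Sis lie near the line, Slc26a3 and Lyz1 near 0 on the vertical axis but far from 0 on the horizontal axis, and most Wnt targets between the dashed line and 0.

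Genes known from stomach or from fetal and regenerating gut were called in small numbers between the mutant tissues. Of 17 gastric surface and mucous genes 3 were higher (Capn8, Muc1 and Sult1c2) and 2 lower (Anxa10 and Muc6), against 6.60% and 9.59% of all genes. The Muc6 call, at log2 -2.76, rested on ileum replicate 3 (adjusted p 0.314 without it). Of 13 gastric gland genes edgeR called 0, with 2 at an unadjusted p under 0.05, and DESeq2 on the 6 libraries called 1. Anxa10, an annexin of gastric epithelium, was at 0.0213, 0.74 and 0.102 CPM in the cecum and 42.7, 48 and 292 CPM in the ileum (log2 -8.82 ± 1.72, adjusted p 0.00257; limma 0.0804). Muc1, a membrane mucin, was at 333, 242 and 225 CPM against 106, 6.01 and 16.9 CPM, higher in the cecum in all 4 fits (log2 2.63 ± 0.71, adjusted p 0.0172), though not without cecum replicate 1 (adjusted p 0.0509) or ileum replicate 3 (0.0703). Gkn1, a peptide of gastric surface cells, overlapped at 499 to 1404 CPM in the cecum and 118 to 3750 CPM in the ileum, and the library labelled ileum replicate 2 was the lowest of the 6. Clu, a marker of regenerating epithelium, was at 9705, 11170 and 9176 CPM in the cecum and 9789, 3340 and 6852 CPM in the ileum (log2 0.59, adjusted p 0.454), against 25.2 to 111 CPM in WT cecum. Of the 17 genes of that list 4 were higher and 1 lower; Ly6a, a surface marker of regenerating gut, was at 451, 627 and 300 CPM against 128, 66.3 and 13.6 CPM (log2 2.73 ± 0.57, adjusted p 0.00373).

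A few markers of fibroblasts, endothelium and erythrocytes were called, too few to set against the shares of all genes (6.60% higher and 9.59% lower). In all 4 fits 1 of 14 fibroblast, 2 of 10 endothelial and 0 of 6 erythrocyte markers were called, where 6.12% of all genes were. The part of other cell types in the results above was not tested. Of 14 fibroblast and matrix genes 2 were higher in the mutant cecum: Postn, a matrix protein, at 314, 255 and 256 CPM against 58.9, 32.6 and 27 CPM (log2 2.80 ± 0.54, adjusted p 0.00224; in all 4 fits), and Fn1, fibronectin, at 3053, 1274 and 2382 against 531, 531 and 310 CPM (log2 2.29 ± 0.68, adjusted p 0.0271; above the threshold without cecum replicate 1 or any 1 ileum library). The 14 genes summed to 4852 to 7026 CPM in the cecum libraries and 2509 to 3653 CPM in the ileum libraries. Smooth muscle genes summed to 2877 to 3681 CPM and 1302 to 2985 CPM, with 0 of 14 called by edgeR (1 at an unadjusted p under 0.05) and 1 by DESeq2 on the 6 libraries. Of 23 inflammatory mediators 2 were higher (Noxo1 and Icam1) and 1 lower, Nos2, which was at 15.1, 11.2 and 14.8 CPM in the cecum and 20.9, 568 and 1.93 CPM in the ileum, so that its call rested on the library labelled ileum replicate 2. In all 4 fits 1 mediator was higher and 0 lower. The number called higher ran from 0, without ileum replicate 3, to 7, without ileum replicate 1. Of 10 endothelial genes 3 were lower (2 in all 4 fits), of which Prox1 is also on the Wnt list and Tek, an endothelial receptor, rested on ileum replicate 3 (log2 -2.49, and -0.0047 without it). Of 6 erythrocyte genes 2 were higher. These haemoglobin genes, Hba-a1 and Hba-a2, near-identical copies that can exchange reads, were higher (log2 2.74 and 2.78) with cecum replicate 2 the highest library, and neither was called without it or by limma with group weights. edgeR called 0 of 11 neutrophil, 0 of 10 mast cell, 0 of 14 B cell, 0 of 15 neuron and glia and 0 of 9 adipocyte and mesothelial markers, with 4, 5, 0, 2 and 2 at an unadjusted p under 0.05. DESeq2 on the 6 libraries called 2 of the mast cell markers and 0 of the others. The neutrophil count hung on 1 library: without ileum replicate 1 edgeR called 5 higher in the cecum. Their median log2 fold change was then 2.36 in place of 1.47. It also called 1 mast cell marker lower without ileum replicate 2, and 1 neuron and glia marker higher without cecum replicate 1.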

How the data were processed

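RNA sequencing counts per gene were analysed for 24 libraries in 8 groups of 3; the groups follow the titles. The authors deposited whole-number counts for 39179 genes per library, aligned to GRCm38 with TopHat2 2.0.11 and counted with HTSeq 0.5.3p3, per the submitters' processing notes; the library kit, per the labels, does not mark strand, so overlapping antisense genes cannot be separated. The 5 entries of each file that name no gene were left out (no feature 6.62% to 10.4% of reads, ambiguous 2% to 3.44%, not unique 17.3% to 30%). Symbols and coordinates came from GENCODE release M21 and promoters from a RefSeq table (GRCm38.p6).

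Genes were filtered with filterByExpr, normalised by TMM and tested with edgeR 4.0.16 (quasi-likelihood, Benjamini-Hochberg adjusted p under 0.05) in R 4.3.3, with limma 3.58.1 and DESeq2 1.42.0 as alternatives. On simulated counts for this comparison, 22% of genes changed by 1 on the log2 scale and 71% of those changed by 2 were recovered, with 4 unchanged genes called. Each simulated gene had the same spread in all groups, whereas in the data the mutant ileum varied most. How many unchanged genes are called at such unequal spread was not tested. A group at 0 reads was set at a floor of 3 reads per library for bounds, and intervals of ratios cover counting error only. The genes named with values are 19 fixed ones (1 more is not reported here), the 12 largest changes each way, the 6 largest differences between contrasts each way and up to 4 called members of each list; others were chosen after their values were seen. Members, lists and tests were chosen with earlier results of these data known.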

Additional observations from a re-analysis of the deposited data

Results flagged for a closer look

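The cecum minus ileum difference on the log2 scale was tested as an interaction between the Cdx2-/-;Apc+/- mice and the untreated regions. From the fixed genes and the 6 largest differences each way, 20 are given because they were called, so that they differ was a condition of the choice. They were not refitted without the library labelled ileum replicate 2. Without it the mutant log2 value changed sign in Cdx1 (-0.80 to 0.82) and Defa24 (-0.99 to 0.090). Groups of 3 were too small for a test of outlying samples. Values below are the mutant difference minus the untreated one, all called by edgeR.

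Several genes of the large intestine had lower values in the mutants. These were Aqp8, a water channel (-11.03), Slc37a2 (-8.79), Car1 (-8.82), Cyp2c55, a cytochrome P450 of the large bowel (-8.40), and Slc26a3 (-6.49). Values were also lower for Cdx1 (-3.48) and Cdx2 itself (-2.19), which are not particular to the large intestine. Car3, a carbonic anhydrase, differed by -9.71 and Adamts18, a matrix protease, by -9.04.

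Genes with higher values in the mutants included the Paneth cell genes Lyz1 (9.63), Defa24 (10.45) and Defa17 (10.50). The others were Bpifb5 (11.39), T (10.06), S100a8, a neutrophil protein (9.48), Muc5b (8.20), the lactase gene Lct (7.74), Clu (5.76), Olfm4 (5.39) and Ctse, a gastric protease (4.18). All WT cecum libraries had 0 reads of Bpifb5, T and Defa17, so their fitted values depend on the prior count and are no bounds.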

How the results depend on the processing

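With other normalisations or filters the number of genes called between mutant cecum and ileum was 2705 to 3322, and DESeq2 on all libraries called 4228. It fell to 1766 with limma and group weights (1725 shared with the 3321), to 0 in edgeR on the 6 libraries alone and to 1 with the replicate block on those 6; with 1 library left out it ranged from 1620 to 3405. With the replicate block the untreated contrast kept a count of 7383 and the difference between contrasts 3025, against 11351 and 7110. Deviations of same-numbered mutant libraries correlated at 0.226, -0.0732 and -0.0581, so the numbers do not show a pairing. Upper-quartile scaling moved the median of the untreated contrast to -0.155 and its split to 4821 higher and 6443 lower, and that of the difference to 3871 and 3178.

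Of 159 named genes refitted, 128 were called. Reversed signs occurred in Reg3g (log2 0.55 with the block, 0.49 in limma, -0.66 to 1.49 with 1 library left out) and in Slc26a3 (-0.16 in limma, -0.20 to 1.74). With 1 library left out they also occurred in Foxq1 (-0.034, without cecum replicate 2, to 0.51), Slc37a2 (-0.061, without cecum replicate 3, to 0.95) and Mmp7 (-0.64 to 0.22, without ileum replicate 1). Without ileum replicate 2 they occurred in Cdx1 (-1.30 to 0.82), Nos2 (-4.43 to 0.27), Defa24 (-1.51 to 0.090) and Hnf4a (-1.07 to 0.0011). The cause was not tested. Calls lost numbered 29, 38 and 16 without cecum replicates 1, 2 and 3, and 4, 38 and 20 without ileum replicates 1, 2 and 3.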

Other observations

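Tamoxifen and β-naphthoflavone were given to both mutant groups, and β-naphthoflavone acts through the aryl hydrocarbon receptor. Of 8 tested targets of that receptor edgeR called 2 higher in the mutant cecum and 1 lower, against 6.60% and 9.59% of all genes. Ugt1a6a, a glucuronosyltransferase, was at 35.5, 26.6 and 37.2 CPM in the mutant cecum and 12.4, 2.28 and 12.3 CPM in the mutant ileum, without overlap (log2 1.88 ± 0.42, edgeR adjusted p 0.00604). Cyp1b1, a P450 enzyme, was lower, at 16.7, 7.35 and 15.7 CPM against 44.8, 55 and 70.7 CPM (log2 -2.10 ± 0.65, adjusted p 0.0334); the call was lost without the library labelled ileum replicate 2 (adjusted p 0.0587) and in limma with group weights (0.0565). Cyp1a1, whose promoter drives the Cre, was too low to be tested: 0.17, 0.0694 and 0.0817 CPM in the mutant cecum and 0.0446, 0.033 and 0.0184 CPM in the mutant ileum. Among 20 xenobiotic enzymes 3 were higher and 3 lower, and 5.00% were called in all 4 fits, near the 6.12% of all genes. Sult1a1, a sulfotransferase, was at 30.7, 32.5 and 48.6 CPM in the mutant cecum and 5.35 to 6.96 CPM in the mutant ileum (log2 2.66 ± 0.50, adjusted p 0.00194), against 462 to 756 CPM in WT cecum.

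Some of the most changed genes lay outside the lists above. Slc7a11, the cystine carrier that feeds glutathione synthesis, was at 196, 531 and 250 CPM in the mutant cecum and 32.8, 28.9 and 20 CPM in the mutant ileum (log2 3.58 ± 0.41, adjusted p 9.34e-05), with 2.47 to 4.07 CPM in WT cecum. Lman1l, an intracellular lectin related to cargo receptors of the secretory pathway, was at 18.5, 30.3 and 15.8 CPM against 1.05, 0.727 and 0.239 CPM (log2 5.01 ± 0.54, adjusted p 5.79e-05). Gpx5, a glutathione peroxidase known from the epididymis, was at 0.0213, 0.116 and 0.225 CPM in the cecum against 6.74, 71.2 and 8.13 CPM in the ileum (log2 -7.86 ± 1.13, adjusted p 0.000654; -5.91 without the library labelled ileum replicate 2). In each of these genes the groups did not overlap.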
